A study of Mus musculus with 6 samples.

Results

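Factors that chondrocytes, the cells of cartilage, release or carry on their surface were examined in 8 genes across 6 RNA libraries: Cytl1, Cnmd, Ucma, Snorc, Clec3a, Scrg1, Cilp2 and Cilp. They were taken by symbol from a deposited table of 27734 genes. A list of 9 symbols gave 8 genes, because Lect1 is the older symbol of Cnmd, and the row used for Snorc carries the older symbol 3110079O15Rik with the gene identifier that GENCODE pairs with Snorc. The libraries came from rib chondrocytes of E18.5 mouse embryos, freshly isolated with pronase and collagenase D. There were 3 libraries from mutants (Jab1flox/flox; Col2a1-Cre), in which Cre recombinase driven by the Col2a1 promoter acts in cartilage cells, and 3 from wild-type embryos, for which the labels give no alleles. Whether each library was made from its own embryo or from pooled embryos is not in the labels, so the replicate spread behind the p-values may be technical. Libraries are named by group and column number (0, 1 or 2).

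Cartilage is held avascular and elastic by what its cells secrete or carry on their surface. Cnmd (chondromodulin) is made as a membrane precursor whose released part inhibits blood vessel growth. Ucma is a secreted protein of the upper growth plate with many vitamin K-dependent gamma-carboxyglutamate residues. Snorc is a small transmembrane proteoglycan, Clec3a a cartilage C-type lectin related to tetranectin, and Scrg1 a small cysteine-rich secreted protein. Cytl1 is a small cytokine-like secreted protein made in cartilage. Cilp and its relative Cilp2 are matrix proteins best known from the intermediate layer of articular cartilage. The description as small secreted factors therefore holds only in part: Snorc is a membrane protein, and the longest annotated transcripts of Cilp2 and Cilp have 4314 and 4153 bases, against 557 to 1433 bases for the other 6 genes. All 8 genes are protein-coding in GENCODE M21.

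The set was chosen on the values of the mutant and wild-type comparison, in which Cytl1 was higher in mutant cells. Their differences in that comparison are therefore described by their values and carry no p-value. Values are FPKM, read counts divided by transcript length and by the size of the library, so levels can be compared roughly between genes. Fold changes are mutant minus wild type on log2(FPKM + 1), with the standard error (SE) of a limma model fitted to the 14012 genes that averaged 1 FPKM or more. A gene is called, and said to rise or fall, where its adjusted p is under 0.05. Of the 8 genes 7 reached that mean and Cilp did not.

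The plus strand of the 250 bases before the annotated start of Cytl1 and the minus strand of those before Cnmd are shown because these are the member with the highest fold change and the most abundant member (RefSeq, GRCm38.p6; Cytl1 at chr5:37735269-37735518, Cnmd at chr14:79662184-79662433). The motifs searched, on both strands, were AACAAT (a core site of SOX factors), a second SOX core spelled ACAAAG, the TATA box TATAAA, and a TATA-like run, TATTTAA, which was picked after the Cytl1 window had been read. Capitals mark a match.
Cytl1: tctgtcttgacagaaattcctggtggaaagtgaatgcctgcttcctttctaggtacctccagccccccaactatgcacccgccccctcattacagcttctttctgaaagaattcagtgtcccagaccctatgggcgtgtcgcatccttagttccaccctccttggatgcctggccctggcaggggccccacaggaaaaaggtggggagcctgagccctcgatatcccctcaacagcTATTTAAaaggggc
Cnmd: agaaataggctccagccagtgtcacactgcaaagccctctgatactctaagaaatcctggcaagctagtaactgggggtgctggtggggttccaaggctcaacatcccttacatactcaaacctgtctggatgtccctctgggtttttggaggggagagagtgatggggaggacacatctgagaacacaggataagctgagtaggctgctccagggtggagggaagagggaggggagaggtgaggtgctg

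The Cytl1 window held TATTTAA from base -14, counted from the annotated start, and none of the other 3 motifs, and the Cnmd window held none of the 4. Of 32851 promoter windows of this length in the RefSeq table, 4.18% held TATTTAA, 12.4% TATAAA, 9.42% AACAAT and 16.5% ACAAAG on either strand. The table held windows for 5 of the 8 genes, and the only SOX core match among them was AACAAT from base -241 of Cilp2. That window (chr8:69887393-69887642) lies before the RefSeq start but inside the longer GENCODE span of Cilp2, 69880369 to 69887687. A match is a run of letters and not a shown site.

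Some facts of the libraries touch every value below. The targeted gene Cops5, which encodes Jab1, fell to 17.4 ± 0.534 FPKM in mutant libraries, against 40.7 ± 1.39 FPKM in wild-type libraries (SD, n = 3 each; limma adjusted p = 6.5e-04). The sexes were not balanced. Xist stood at 37.3, 0.0176 and 0.0244 FPKM in mutant libraries 0, 1 and 2, against 63.1 to 65.9 FPKM in wild-type libraries. The summed Y-linked genes stood at 14.6, 82.8 and 71.7 FPKM in mutant libraries 0, 1 and 2, against 0.0281 to 0.639 FPKM in wild-type libraries. Genotype and sex can therefore hardly be told apart. Mutant library 0 differed from the other mutant libraries, as it held both Xist and Y-linked RNA. Whether it pooled embryos of both sexes is not in the labels. Of the 7 chondrocyte markers listed, 5 were analysed here, and their sum was 2288 to 4948 FPKM in mutant libraries and 3305 to 4153 FPKM in wild-type libraries, highest in mutant library 0. Erythroid markers summed to 14.9 to 49.4 FPKM in mutant and 196 to 221 FPKM in wild-type libraries, and granulocyte markers to 0.891 to 7.01 FPKM in mutant and 65.2 to 191 FPKM in wild-type libraries. Macrophage and osteoclast markers summed to 79.0, 115 and 279 FPKM in mutant libraries 0, 1 and 2, against 61.3 to 94.6 FPKM in wild type. Endothelial markers summed to 1.37, 8.60 and 9.97 FPKM in mutant libraries 0, 1 and 2, against 2.49 to 4.34 FPKM in wild type. No macrophage, osteoclast or endothelial marker was called. Of 6 muscle markers 1, Tnnt3, was lower without overlap, at 51.8 ± 11.0 FPKM in mutant and 141 ± 19.9 FPKM in wild-type libraries (SD, n = 3 each), and the groups overlapped for the others. In bulk RNA, fewer cells of a type and less RNA per cell cannot be told apart, and the part of these markers in the results was not tested.

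Of the 8 genes 6 were abundant. In the order of their wild-type means these were Cnmd, Ucma, Snorc, Clec3a, Scrg1 and Cytl1, while Cilp2 and Cilp were scarce. Together the 8 genes held 1.62, 1.44 and 1.36% of all protein-coding FPKM in mutant libraries 0, 1 and 2, against 1.90, 1.73 and 1.72% in wild-type libraries 0, 1 and 2. The mutant shares were all below the wild-type shares. Of that sum Cnmd alone made up 38.5 to 43.5% in mutant and 42.7 to 49.4% in wild-type libraries.

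**Figure D1:**
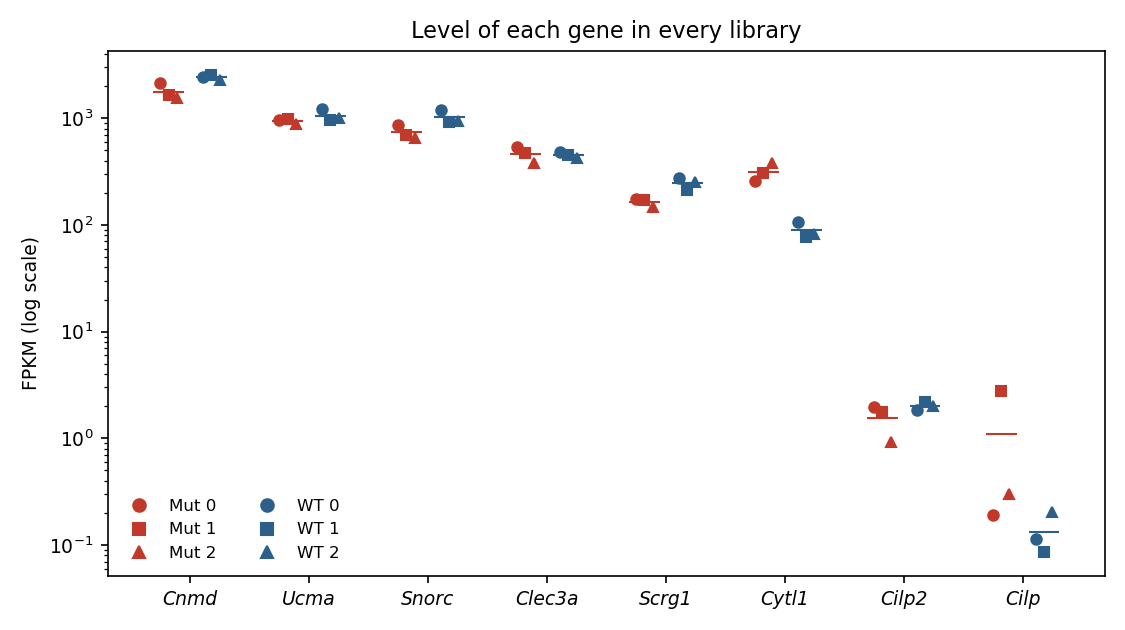
Level of each of the 8 genes in every library, in FPKM on a log axis. Points are libraries (mutant red and left, wild type blue and right) and short lines are group means. Cytl1 lies between 258 and 380.0 FPKM in mutant and between 77.0 and 107 FPKM in wild-type libraries, and Cilp reaches 2.79 FPKM only in mutant library 1.

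The order of the levels differed between the groups at Cytl1. In mutant libraries it ran Cnmd, Ucma, Snorc, Clec3a, Cytl1 and Scrg1 by mean, and in wild-type libraries Cytl1 stood below Scrg1. In wild-type cells the ranges of Ucma and Snorc overlapped, while every other pair of neighbours among the 8 genes was separated. Within each wild-type library Ucma was still above Snorc, at 1222 against 1190.3, 955 against 924 and 995 against 945 FPKM. In mutant cells Ucma, at 881 FPKM or more, lay above Snorc, at 859 FPKM or less. Clec3a and Cytl1 were neighbours there and touched at 377 and 380.0 FPKM in mutant library 2. Among protein-coding genes of the table Cytl1 ranked 69 to 134 in mutant libraries and 448 to 661 in wild-type libraries. Scrg1 differed in the other direction, with ranks of 222 to 292 in mutant and 126 to 167 in wild-type libraries.

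Cytl1 (chromosome 5, 37735519 to 37739820, plus strand, in mm10 like all positions given, up to 4 exons) was the gene that stood apart. Its level was 258, 308 and 380.0 FPKM in mutant libraries 0, 1 and 2, against 107, 77.0 and 83.0 FPKM in wild-type libraries 0, 1 and 2. The groups did not overlap, and the lowest mutant library, number 0, was still above the highest wild-type library. The means were 315 ± 61.4 FPKM in mutant and 88.9 ± 15.6 FPKM in wild-type libraries (SD, n = 3 each), a ratio of 3.55 and a log2 fold change of 1.81 (SE 0.186). Of the 720 tested genes averaging 100 FPKM or more, 11 had a log2 fold change at least as high, Cytl1 included. Leaving out any 1 library gave values of 1.67 to 1.95, with 1.95 both without mutant library 0 and without wild-type library 0, whose title carries day 30 of the month where the others carry day 24. When the Y-linked level entered the model, the value was 1.20 and Cytl1 was not called.

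The abundant genes other than Cytl1 were level or lower in mutant cells. Cnmd (listed as Lect1, chromosome 14, 79637690 to 79662170, minus strand) was the most abundant. It measured 2153, 1638 and 1532 FPKM in mutant libraries 0, 1 and 2, against 2446, 2565 and 2302 FPKM in wild-type libraries 0, 1 and 2. All mutant libraries were lower, with mutant library 0 close to the wild-type range. The means were 1774 ± 332 FPKM in mutant and 2437 ± 132 FPKM in wild-type libraries (SD, n = 3 each), a difference of -27.2% and a log2 fold change of -0.47 (SE 0.161). It was -0.62 without mutant library 0.

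Snorc (chromosome 1, 87470271 to 87475482, plus strand) followed Cnmd closely. Its level was 859, 691 and 659 FPKM in mutant libraries 0, 1 and 2, against 1190.3, 924 and 945 FPKM in wild-type libraries 0, 1 and 2. The groups did not overlap, and mutant library 0 was again the one nearest to wild type. The mean difference was -27.8% (log2 fold change -0.47, SE 0.158). Without wild-type library 0, the highest of all, the log2 fold change was -0.35.

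Scrg1 (chromosome 8, 57455923 to 57477585, plus strand) was the member with the most negative fold change. It measured 177, 170.4 and 146 FPKM in mutant libraries 0, 1 and 2, against 273, 213 and 253 FPKM in wild-type libraries 0, 1 and 2. Here mutant library 0 lay with the other mutant libraries and well below wild type. The means were 164 ± 15.9 FPKM in mutant and 246 ± 30.6 FPKM in wild-type libraries (SD, n = 3 each), a difference of -33.3% and a log2 fold change of -0.58 (SE 0.126). Scrg1 was not called in the fit of all 14012 genes with deposited values and equal library weights, nor in any leave-one-out fit. Of the 17 alternatives, only 3 called it as lower: quantile normalization, library weights, and a fit of protein-coding genes alone. Since the same comparison entered the choice of the genes, nothing is read from these calls.

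Ucma and Clec3a had overlapping groups. Ucma (chromosome 2, 4976122 to 4985748, plus strand) measured 961, 975 and 881 FPKM in mutant libraries 0, 1 and 2, against 1222, 955 and 995 FPKM in wild-type libraries 0, 1 and 2. Only wild-type library 0 was clearly higher, and the log2 fold change was -0.16 (SE 0.127) with all libraries and -0.06 without that one. Clec3a (chromosome 8, 114418086 to 114425846, plus strand) measured 538, 473 and 377 FPKM in mutant libraries 0, 1 and 2, against 483, 453 and 426 FPKM in wild-type libraries 0, 1 and 2. The mutant values lay on both sides of the wild-type range. The log2 fold change of Clec3a was 0.01 (SE 0.148), and its sign turned under several settings, quantile normalization (-0.12) among them.

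**Figure D2:**
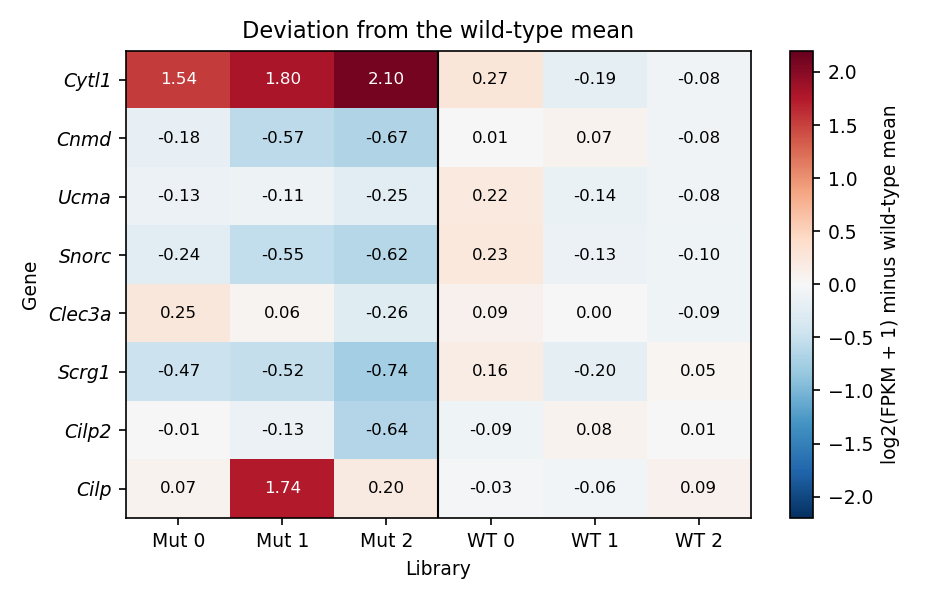
Deviation of each gene in each library from its wild-type mean, as log2(FPKM + 1), with mutant libraries left of the line and wild-type libraries right of it. Cytl1 is 1.54 to 2.10 above its wild-type mean in mutant libraries, Cnmd, Snorc and Scrg1 are 0.18 to 0.74 below theirs, and Cilp is high in mutant library 1.

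Of the 7 members tested 1 was called, Cytl1 as higher, beside 6.07% of the 14012 genes (3.48% higher and 2.59% lower). Of the 7, 1 lay above and 3 lay below wild type with no overlap, beside 32.2% of the 14012 genes (16.3% above and 15.9% below). Since the same comparison entered the choice of the genes, nothing is read from these counts. The median log2 fold change of the 7 was -0.26, beside -0.004 for all genes tested.

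**Figure D3:**
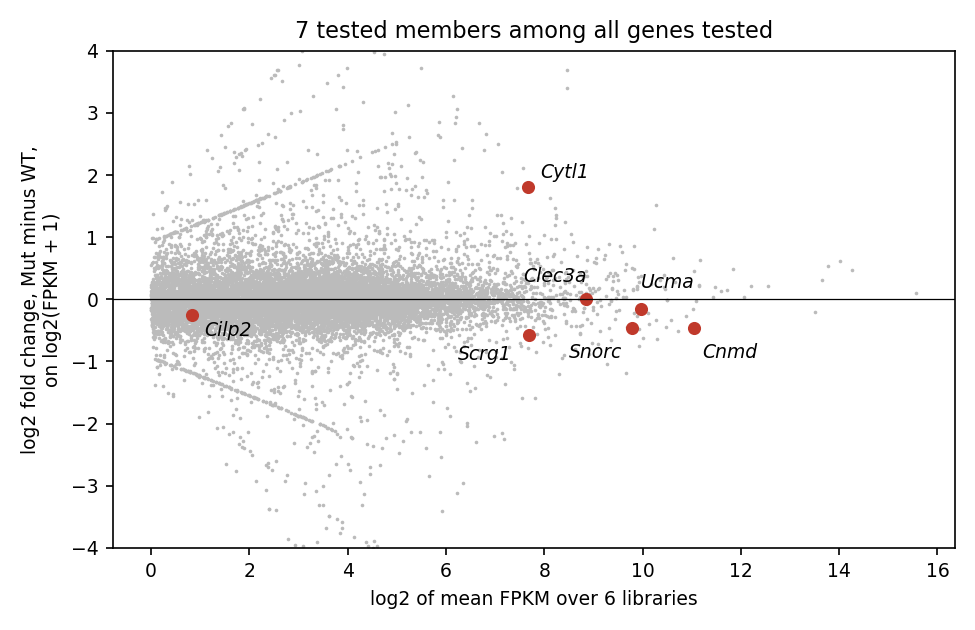
Log2 fold change, mutant minus wild type on log2(FPKM + 1), against the log2 mean FPKM for the 14012 genes tested (grey) with the 7 tested members in red; 37 genes beyond 4 on the vertical axis are not drawn. Cytl1 is at 1.81 and the other members lie between -0.58 and 0.01.

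Mutant libraries 0, 1 and 2 were not alike in these genes. Of Cnmd, Ucma, Snorc, Clec3a and Scrg1, the median deviation from the wild-type mean on log2(FPKM + 1) was -0.18, -0.52 and -0.62 in mutant libraries 0, 1 and 2, and 0.16, -0.13 and -0.08 in wild-type libraries 0, 1 and 2. The 15 tested genes of a cartilage matrix list gave medians of -0.06, -0.63 and -0.67 in the mutant and -0.03, 0.09 and -0.05 in the wild-type libraries. Mutant library 2 was lowest of the 6 for each of these 5 members and highest for Cytl1. The coefficient of variation of Cnmd was 18.7% among mutant and 5.40% among wild-type libraries, and that of Clec3a 17.4% among mutant and 6.25% among wild-type libraries. Cytl1 varied about equally in both groups, by 19.5% in mutant and 17.5% in wild-type libraries. By the root-mean-square difference of profiles over the 6 libraries, each centred on the gene's mean of log2(FPKM + 1), the most alike members were Snorc and Scrg1 (0.12) and Cnmd and Snorc (0.13). The least alike were Cytl1 and Scrg1 (1.22).

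Ratios between members within a library do not depend on the scaling of that library. Cytl1 divided by Cnmd was 0.120, 0.188 and 0.248 in mutant libraries 0, 1 and 2, against 0.0436, 0.0300 and 0.0361 in wild-type libraries 0, 1 and 2. Cytl1 divided by Ucma was 0.268, 0.316 and 0.431 in mutant libraries and 0.0872, 0.0806 and 0.0834 in wild-type libraries, where it was nearly constant. For each of the 5 abundant partners the mutant ratios lay above all wild-type ratios, and the ratio of means ranged from 3.65 with Clec3a to 5.43 with Scrg1. Snorc divided by Cnmd was 0.417 ± 0.0161 in mutant and 0.419 ± 0.0637 in wild-type libraries (SD, n = 3 each), with overlapping groups. Clec3a divided by Cnmd was 0.262 ± 0.0234 in mutant and 0.187 ± 0.0105 in wild-type libraries, without overlap.

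**Figure D4:**
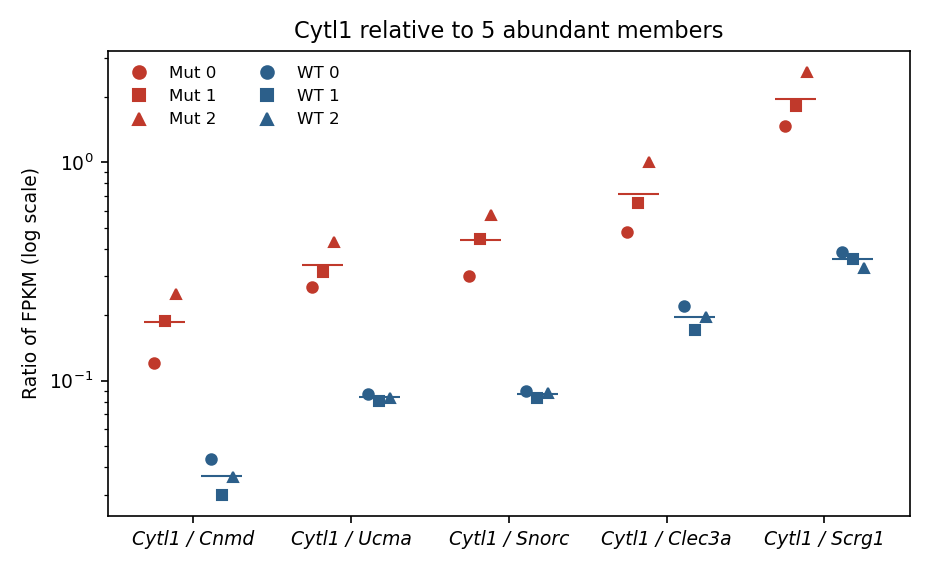
Cytl1 FPKM divided by the FPKM of Cnmd, Ucma, Snorc, Clec3a or Scrg1 in the same library, on a log axis. Points are libraries (mutant red and left, wild type blue and right) and short lines are group means. All mutant ratios lie above all wild-type ratios, and for Scrg1 they exceed 1 in mutant libraries (1.46, 1.81 and 2.60).

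The genes whose profile over the 6 libraries was most like that of Cytl1 were sought among 5496 protein-coding genes averaging 10 FPKM or more. The 10 nearest, in order, were Dcxr, S100a4, Phlda3, F13a1, Sncg, Gpnmb, Emb, Crip2, Prss23 and Fam198b, with root-mean-square differences of 0.22 to 0.30 on log2(FPKM + 1). The likeness is a description over these libraries only. Dcxr, a carbonyl reductase, measured 30.9, 31.7 and 46.6 FPKM in mutant and 13.6, 12.6 and 10.8 FPKM in wild-type libraries 0, 1 and 2. S100a4, a calcium-binding protein, was of a level like that of Cytl1, at 285, 451 and 524 FPKM in mutant and 156, 141 and 99.8 FPKM in wild-type libraries. Like Cytl1, both were highest in mutant library 2 and lowest among the mutants in library 0. Phlda3, F13a1, Crip2 and Fam198b did not share that order. All 10 lay above wild type without overlap, and they were picked for their likeness to Cytl1 in these same libraries.

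The genes next to Cytl1 on chromosome 5 were measured too. Stk32b, which encodes a serine/threonine kinase and lies 18348 bases from Cytl1, rose to 9.59, 5.74 and 6.09 FPKM in mutant libraries 0, 1 and 2, against 1.64, 1.75 and 2.07 FPKM in wild-type libraries 0, 1 and 2 (log2 fold change 1.50, SE 0.193, limma adjusted p = 0.018). Unlike Cytl1 it was highest in mutant library 0. It was not called without wild-type library 0, 1 or 2 or mutant library 2, and adjusted p ranged from 0.014 to 0.076 over the leave-one-out fits. On the other side lies Msx1, a homeobox gene 80665 bases away, at 1.61 ± 0.494 FPKM in mutant and 0.861 ± 0.149 FPKM in wild-type libraries (SD, n = 3 each; limma adjusted p = 0.21). The next genes out, Evc2 and Stx18, were not called (limma adjusted p = 0.14 and 0.24). Of the 28 neighbours of the other 7 members, taken as the nearest 2 protein-coding genes of the table on each side, 18 were tested and none was called by limma, while 3 had an unadjusted p under 0.05, beside 24.7% of all 14012 genes.

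Cilp2 and Cilp were scarce. Cilp2 (chromosome 8, 69880369 to 69887687, minus strand) measured 1.99, 1.75 and 0.930 FPKM in mutant libraries 0, 1 and 2, against 1.83, 2.18 and 2.02 FPKM in wild-type libraries 0, 1 and 2. Only mutant library 2 was low, and the groups overlapped (log2 fold change -0.26, SE 0.196). Without mutant library 2 the log2 fold change was -0.07.

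Cilp (chromosome 9, 65265180 to 65280605, plus strand) was present above a trace in a single library. It measured 0.191, 2.79 and 0.299 FPKM in mutant libraries 0, 1 and 2, against 0.113, 0.0865 and 0.203 FPKM in wild-type libraries 0, 1 and 2. Mutant library 1 stood apart and the groups overlapped. Cilp averaged 0.614 FPKM over all libraries, below the 1 FPKM required of the genes fitted, so no fold change is given. Low values of genes with 1 annotated transcript clustered at a common step, and if that step is a single read, Cilp rested on about 369 reads in mutant library 1 and on 9.1 to 31.0 reads in each of the others.

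Some markers of tendon and fibroblasts were, like Cilp, highest in mutant library 1, and others were not. Mutant library 1 was the highest library for 2 of 3 tendon markers, for 4 of 6 fibroblast and perichondrium markers and for 6 of 10 articular surface and joint genes, beside 12.3% of all genes tested. Tenomodulin (Tnmd), a tendon gene and the closest relative of Cnmd, measured 8.33, 29.2 and 4.43 FPKM in mutant libraries 0, 1 and 2, against 1.97, 2.54 and 4.47 FPKM in wild-type libraries 0, 1 and 2. The sum of the tendon markers ranged from 8.25 to 34.1 FPKM in mutant and from 5.37 to 8.98 FPKM in wild-type libraries, and that of the fibroblast markers from 397 to 771 FPKM in mutant and from 301 to 663 FPKM in wild-type libraries. Col1a1, Col1a2 and Mkx were not highest there: Col1a1 measured 67.3 FPKM in mutant library 1, against 142 and 178 FPKM in wild-type libraries 1 and 2. No marker of either list was at 0 in all libraries. The part of these cells in the Cilp value was not tested. Prg4, which encodes the lubricin of joint surfaces, measured 0.753, 1.58 and 0.670 FPKM in mutant libraries 0, 1 and 2, against 0.889, 0.583 and 1.53 FPKM in wild-type libraries 0, 1 and 2.

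**Figure D5:**
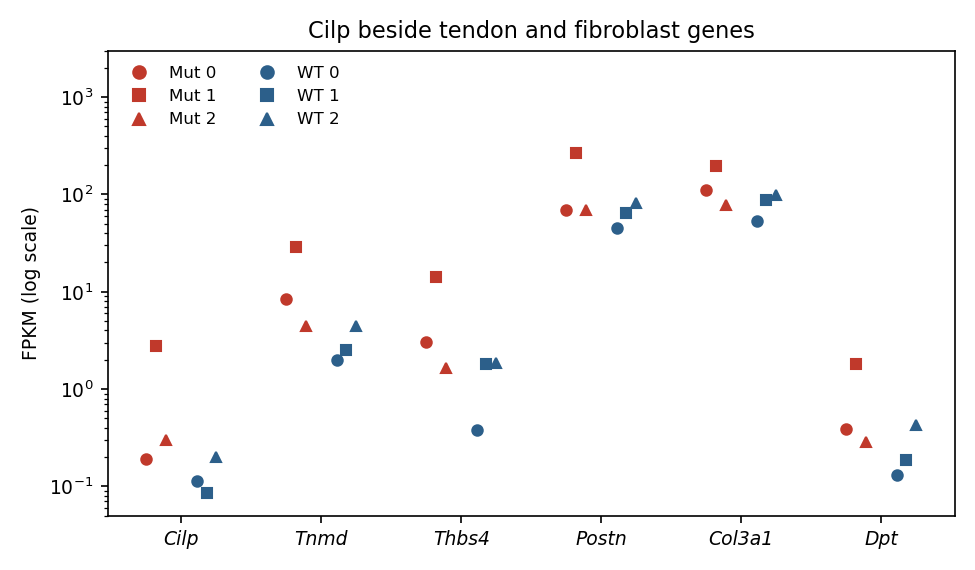
FPKM of Cilp and of 5 tendon, joint or fibroblast genes (Tnmd, Thbs4, Postn, Col3a1 and Dpt, chosen after their values were seen, and because they follow Cilp) in every library, on a log axis, mutant red and left, wild type blue and right. Mutant library 1 (red square) is the highest library for all 6 genes, at 2.79 FPKM for Cilp and 29.2 FPKM for Tnmd.

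Other genes of the same biology, from lists drawn up for these roles, gave the following counts in limma. Of all 14012 genes 3.48% rose and 2.59% fell. The lists were chosen with earlier results of these data known. Their counts and adjusted p-values are therefore a description, and no excess over the share of all genes is read from them. Once the Y-linked level entered the model, no gene named as called from these lists kept its call except Tgfbr3. The summed Y-linked level was at most 0.639 FPKM in wild-type libraries. That fit therefore leans on mutant library 0 (14.6 FPKM) against mutant libraries 1 and 2 (82.8 and 71.7 FPKM). Tgfbr3 was highest in mutant library 0, at 21.4 FPKM against 14.3 and 13.4 FPKM. The fit cannot separate sex from genotype, and nothing is read from the calls it kept or lost. Of 13 tested further secreted or membrane factors of cartilage 2 fell and none rose (list median log2 fold change -0.06). Chrdl1, an antagonist of bone morphogenetic proteins, fell to 57.3, 46.3 and 38.7 FPKM in mutant libraries, against 141, 111 and 147 FPKM in wild-type libraries (adjusted p = 0.015). Mia, a small secreted protein of cartilage, fell to 457, 406 and 347 FPKM in mutant libraries, against 981, 759 and 766 FPKM in wild-type libraries (adjusted p = 0.025). The count that fell ranged from 0 to 2 over the leave-one-out fits. Chrdl1 was called in 3 of 6 such fits and Mia in 1.

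Of the 15 tested cartilage matrix genes 2 fell and none rose (list median -0.44), with 0 to 3 falling over the leave-one-out fits. Comp, cartilage oligomeric matrix protein, fell to 508 ± 36.0 FPKM in mutant libraries, against 801 ± 45.5 FPKM in wild-type libraries (SD, n = 3 each; adjusted p = 0.024), and the matrilin gene Matn3 fell to 239.9 ± 24.4 FPKM in mutant libraries, against 359 ± 31.8 FPKM in wild-type libraries (adjusted p = 0.045). Comp was called in 1 of 6 leave-one-out fits and Matn3 in none of them, and Matn3 was also not called with median-of-ratios scaling. The most abundant of these genes, Col9a3 and Col9a2, which encode chains of collagen IX, measured 1852 ± 411 and 1392 ± 329 FPKM in mutant libraries, against 2438 ± 299.6 and 1960.1 ± 197 FPKM in wild-type libraries, and were not called (SD, n = 3 each; adjusted p = 0.26 and 0.18). Of 11 tested chondrogenic transcription factors 1 rose, Foxa3, a forkhead factor, to 18.4 ± 0.568 FPKM in mutant libraries, against 13.6 ± 0.965 FPKM in wild-type libraries (SD, n = 3 each; adjusted p = 0.035), and it was called in none of the leave-one-out fits. Sox9, the regulator of the lineage, was below wild type in each mutant library and lowest in mutant library 2 (38.9 FPKM) without being called. In limma 6 of these 11 factors and 5 of the 15 matrix genes had an unadjusted p under 0.05. None of 10 tested genes of the resting and columnar zones and none of 10 hypertrophic genes was called by limma. In each list 4 had an unadjusted p under 0.05, beside 24.7% of all genes tested, and both lists hold Ihh and Pth1r. Other settings did call some: 1 resting or columnar gene as higher in 5 of the 17 alternatives, and of the hypertrophic genes 2 as lower when the Y-linked level entered the model and 1 as higher among protein-coding genes alone. The most abundant were Dlk1 and Fgfr3, and Spp1 and Col10a1. Spp1, which encodes osteopontin, measured 1673 ± 686 FPKM in mutant and 746 ± 257 FPKM in wild-type libraries (SD, n = 3 each; adjusted p = 0.18). Of 8 tested articular surface and joint genes 1 rose, Erg, a transcription factor of joint cartilage, to 12.0 ± 3.33 FPKM in mutant libraries, against 5.08 ± 0.631 FPKM in wild-type libraries (adjusted p = 0.047). Erg was called again in 1 of 6 leave-one-out fits, and its log2 fold change was -0.07 once the Y-linked level entered the model.

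Among 11 tested regulators of blood vessel growth, the process that Cnmd inhibits, 2 rose and 1 fell (list median 0.03). Col18a1, the source of endostatin, rose to 4.80 ± 0.841 FPKM in mutant libraries, against 1.60 ± 0.528 FPKM in wild-type libraries (adjusted p = 0.030), and Timp3, an inhibitor of metalloproteinases, rose to 104 ± 15.1 FPKM in mutant libraries, against 28.6 ± 11.4 FPKM in wild-type libraries (SD, n = 3 each; adjusted p = 0.024). Serpinf1, which encodes the vessel inhibitor PEDF, fell to 87.4, 103 and 124 FPKM in mutant libraries, against 240, 246 and 198 FPKM in wild-type libraries (adjusted p = 0.022). Vegfa, the main vessel growth factor, measured 39.3 ± 10.7 FPKM in mutant and 57.1 ± 16.1 FPKM in wild-type libraries and was not called (adjusted p = 0.31). The most abundant of the list, Sparc and Thbs1, were not called. Over the leave-one-out fits 0 to 2 rose and 0 to 1 fell. Col18a1 and Timp3 were each called in 1 of 6 such fits and Serpinf1 in 2.

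Of 8 tested genes of gamma-carboxylation, the modification Ucma carries, 1 rose. It was Gas6, a gamma-carboxylated ligand of TAM receptors, at 49.4, 50.5 and 54.0 FPKM in mutant libraries, against 26.9, 28.4 and 24.8 FPKM in wild-type libraries (log2 fold change 0.92, SE 0.076, adjusted p = 0.0053). Gas6 was called in all 6 leave-one-out fits. Mgp, a Gla protein of the matrix like Ucma, measured 1449 ± 367 FPKM in mutant and 1423 ± 111 FPKM in wild-type libraries (adjusted p = 0.99), and the carboxylase gene Ggcx was not called. Of 12 tested ligands and receptors of TGF-beta and IGF signalling, with which Cilp is known to interact, 2 rose and none fell. The receptor gene Tgfbr2 rose to 21.4 ± 0.453 FPKM in mutant libraries, against 16.7 ± 1.03 FPKM in wild-type libraries, and Tgfbr3 rose to 16.4 ± 4.39 FPKM in mutant libraries, against 7.93 ± 0.340 FPKM in wild-type libraries (SD, n = 3 each; adjusted p = 0.044 and 0.042). Tgfbr2 was called in none of the 6 leave-one-out fits and Tgfbr3 in 1. The growth factor gene Igf2, the most abundant of these, measured 999 ± 214 FPKM in mutant and 1527 ± 89.8 FPKM in wild-type libraries (adjusted p = 0.095). Over the leave-one-out fits 0 to 1 rose and 0 to 1 fell.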

How the data were processed

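The authors deposited FPKM values for 27734 genes in 6 library columns. STAR, Cufflinks, Cuffdiff and mm10 are named in the submitters' processing notes, and the labels' protocols name CLC Genomics Workbench and stranded, ribosomal RNA-depleted single-end libraries. Versions and any scaling between libraries are not given in the sources used here. Columns were matched by name: 4 to a sample and 2 (those numbered 2) to their group only. The labels give a nominal 50000000 reads per library, and mapped reads per library are not given. If the common step of low values is a single read, the libraries held 22800000 to 33500000 counted reads.

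Values were transformed as log2(FPKM + 1), and the 14012 genes averaging 1 FPKM or more were fitted with limma 3.58.1 in R 4.3.3 (trend, two-sided), with Benjamini-Hochberg adjustment over all genes tested. The code was tested on simulated data. Exact permutation of 3 against 3 libraries reaches no p below 0.1 and was not used. Identifiers matched GENCODE M21 for 99.4% of genes. The members and gene lists were chosen with earlier results of these data known. Named genes were the members, the nearest genes in profile or position, and genes of lists for these roles that were called or abundant, with some others chosen after their values were seen. Alternatives were other pseudocounts, filters, scalings, weights, covariates and left-out libraries. Proteins were not analysed here.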

Additional observations from a re-analysis of the deposited data

How the results depend on the processing

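The log2 fold changes of Cytl1, Ucma and Scrg1 kept their sign in all 17 alternatives. Those of Cnmd, Snorc and Cilp2 turned only when the Y-linked level entered the model (0.23, 0.08 and 0.28), where Clec3a was 0.54, Scrg1 -0.37 and Cytl1 1.20. The cause was not tested. The Y-linked level separates the groups: its sum was 14.6 FPKM or more in mutant and 0.639 FPKM or less in wild-type libraries. A fit with this covariate leans on mutant library 0 against mutant libraries 1 and 2, and cannot separate sex from genotype. The number of members called was 1, but 0 with that covariate or with the replicate block, 2 with quantile normalization or with protein-coding genes only (Scrg1 added) and 3 with library weights (Cnmd and Scrg1 added). It was 1 in each leave-one-out fit, and in the weakest of these fits Cytl1 only just passed the 0.05 threshold. Since the same comparison entered the choice of the genes, nothing is read from these calls. Over all genes 850 were called, but 1488 with library weights, 461 with every gene tested, 236 with the Y-linked covariate and 1373 when other gene types were left out. Without 1 library the count ranged from 174 to 666 in fits with fewer libraries. Same-numbered libraries had no shared deviation from their group means (correlations -0.042 to -0.023). This cannot show whether samples were paired, because the columns numbered 2 match no sample. With the replicate block 60 genes were called. Low read numbers limit Cilp and Cilp2 most.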
